A study of Mus musculus with 20 samples.

Results

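FVB/NJ prostates were set against those of every other strain in a survey of transcript levels in the normal mouse prostate. FVB/NJ gave 4 of the 20 samples, and all 4 were used. Each sample was RNA pooled from 3 untreated males aged 8 to 9 weeks, with all 4 prostate lobes (dorsal, lateral, ventral and anterior) combined, so that 12 mice stood for the strain. C57BL/6J, 129X1/SvJ, BALB/c and DBA/2 gave 4 pools each, prepared alike from mice of the same age, and no engineered allele or treatment is given for any of the 5 inbred strains. FVB/NJ, C57BL/6J and 129X1/SvJ mice came from one supplier and BALB/c and DBA/2 mice from another, so supplier and strain could not be told apart for the second pair. Amplified RNA of each pool was hybridised with a reference, made of equal amounts of RNA from all samples of all strains, to a spotted array of cDNAs from mouse prostate. A value is the log2 ratio of sample over reference, so it says how a transcript compares between strains and not how abundant it is. Pools 1 and 4 of FVB/NJ carried the dye Cy3 and pools 2 and 3 carried Cy5, and each other strain also had 2 pools in each dye.

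FVB/N is an inbred line widely used to make transgenic mice, because its fertilised eggs are easy to inject and its litters are large. It carries the q haplotype of H2, the mouse major histocompatibility complex (MHC), whereas BALB/c and DBA/2 carry d, and C57BL/6J and 129X1/SvJ carry b. The mouse prostate is a branched gland whose luminal cells secrete proteins into semen under the control of androgens, on a layer of basal cells and within a stroma of fibroblasts and smooth muscle. Because whole tissue was measured, fewer cells of a type and less RNA per cell cannot be told apart in any value below.

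FVB/NJ differed from the mean of the other 4 strain means at 285 array elements, or 2.55% of the 11159 tested, at an adjusted p under 0.05 from limma, and such elements are called here. It was higher at 136 (1.22%) and lower at 149 (1.34%). The median size of the 285 differences was 0.62 on the log2 scale (1.53-fold), and they reached 2.68 upwards, at the pantetheinase gene Vnn1, and -2.13 downwards, at the protease inhibitor gene Spink8. Over all elements tested the median difference was 0.00. Of the 5820 genes that had an element of their own, 156 (2.68%) were called, with 77 higher (1.32%) and 79 lower (1.36%) in FVB/NJ.

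A difference from the mean of 4 strains can come from all of them or from some, so FVB/NJ was also tested against each strain in turn, with the weakest of the 4 comparisons deciding. At 20 elements (0.179% of those tested) FVB/NJ stood apart from each of the other strains in the same direction, and at 145 it did so before adjustment. Only 4 of the 20 were higher in FVB/NJ (0.0358%) and 16 were lower (0.143%). The same test gave 34 elements for 129X1/SvJ, 17 for C57BL/6J, 14 for DBA/2 and 5 for BALB/c. The 20 elements of FVB/NJ stood for 13 named genes and 4 elements that had no single gene name. Clu and Rnf225 were the named genes that were higher, and H2-Eb1, Sec22b, D3Ertd751e, Il1r2, Spint1, Ctsh, D17H6S56E-5, Zfp362, Slc25a17, Capzb and Dcaf17 were lower. Without any one of the 20 arrays in turn, 16 of the 20 elements kept the call every time, and the exceptions were 1 element each of Clu, Il1r2 and Slc25a17 and that of D17H6S56E-5. With 2 arrays per strain, the Cy3 arrays alone gave 10 such elements and the Cy5 arrays alone gave 0, of 121 and 45 called against the mean.

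**Figure D1:**
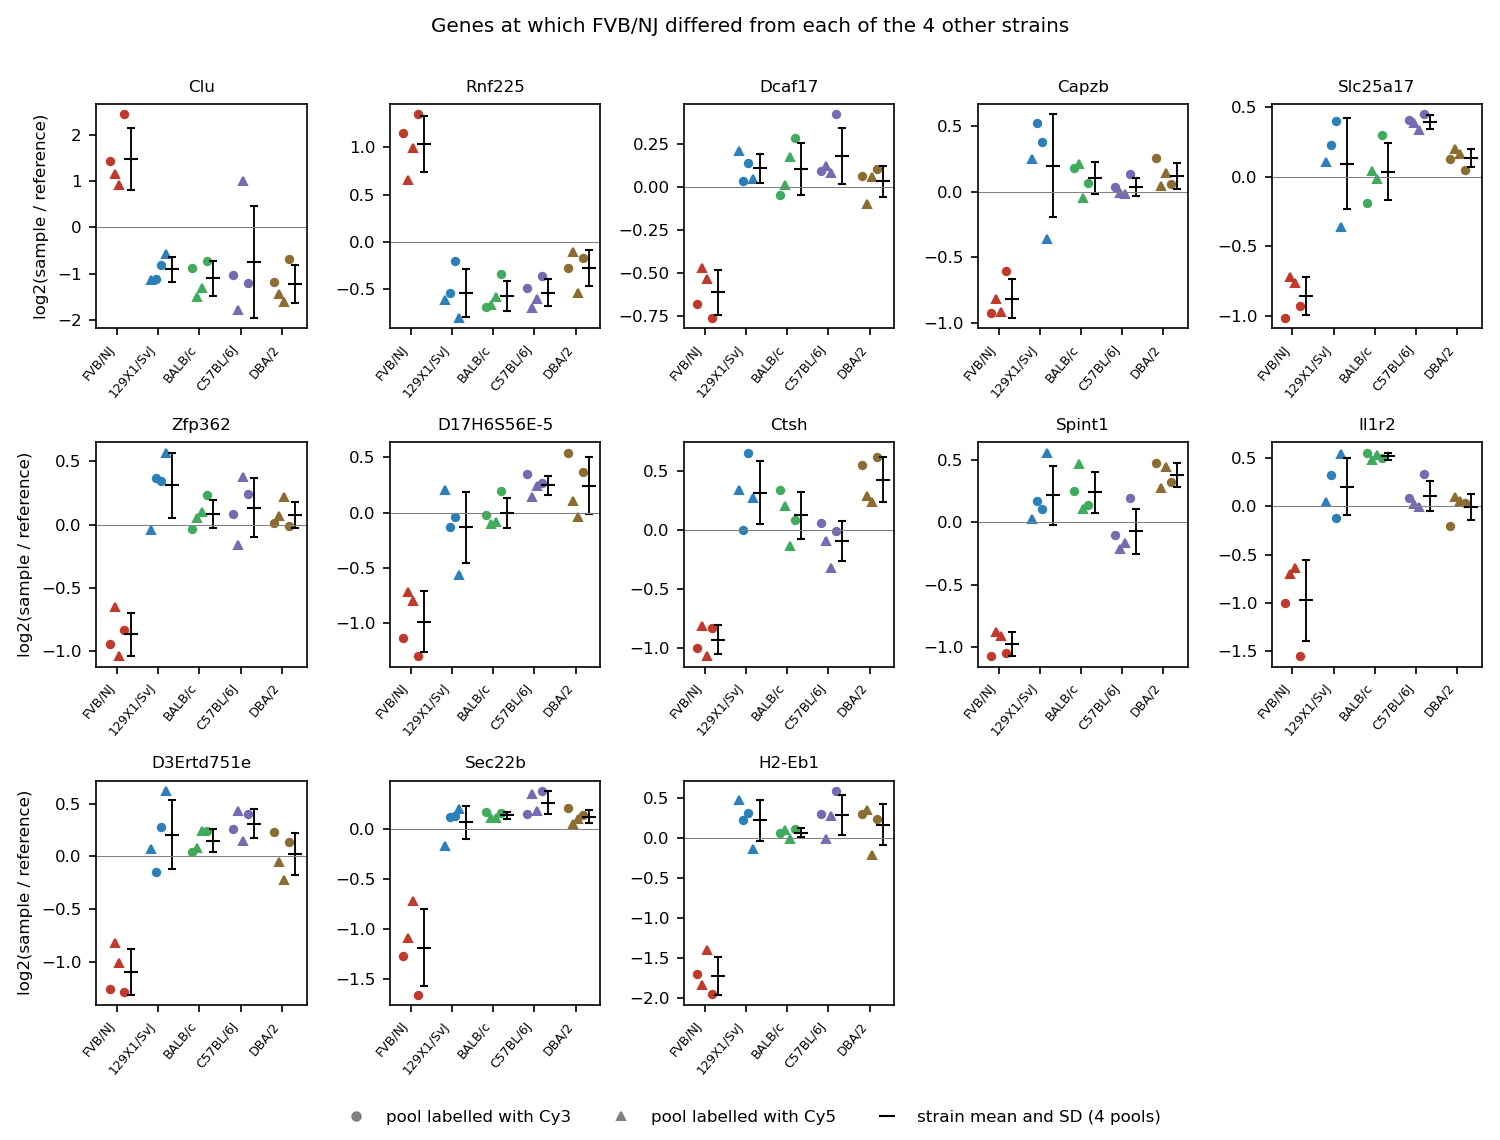
The log2 ratio of sample over reference (vertical axis, which differs between panels) in each pool, by strain, for the 13 genes at which FVB/NJ differed from each other strain, ordered from the highest difference to the lowest. Circles are pools labelled with Cy3, triangles are pools labelled with Cy5, and black marks give the mean and SD of 4 pools. The 4 FVB/NJ pools lie apart from all 16 others in every panel but that of Clu, where 1 C57BL/6J pool at 0.99 lies above the lowest FVB/NJ pool at 0.91.

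Clu had the largest difference among these genes. It encodes clusterin, a secreted chaperone that was described in the rat prostate as an RNA that rises after castration. On its second element the FVB/NJ pools read 1.24, 1.01, 0.91 and 2.25, whereas the 16 other pools had a lowest value of -1.73, a median of -1.18 and a highest value of -0.67. No pool of another strain came within 1.58 of the lowest FVB/NJ pool. FVB/NJ averaged 1.35 ± 0.61 and the nearest strain, 129X1/SvJ, was 2.39 lower (5.26-fold). The difference from the mean of the others was 2.54 ± 0.20 (SE), a 5.80-fold higher level, with an adjusted p of 1.33e-07 against the mean and 6.66e-05 against each strain from limma. Its first element gave a like difference of 2.48 ± 0.34 (adjusted p = 1.32e-04 from limma) with FVB/NJ pools at 1.43, 1.14, 0.91 and 2.44. There C57BL/6J pool 3 read 0.99, against -0.97 for the same array on the second element, and the adjusted p against each strain was 0.0271. This call on the first element was lost without FVB/NJ pool 1, 2 or 4, 129X1/SvJ pool 1 or 2, or C57BL/6J pool 1, 2 or 4, at an adjusted p of up to 0.181, and also with array weights, a robust spread or no moderation, whereas the second element kept its call without each array in turn. In both dyes the second element was higher in FVB/NJ, by 2.80 in Cy3 and by 2.27 in Cy5. Fold sizes here and below are those of the array. In the study's qRT-PCR of the same RNA, which covered Clu, fold differences between strains were larger. The study ascribes this in part to measuring each sample against a reference pooled from all strains.

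Rnf225, a gene of the RING finger family on chromosome 7, was the other named gene that was higher in FVB/NJ alone. Its FVB/NJ pools read 1.15, 0.65, 0.99 and 1.35, and the other 16 read -0.81 to -0.11 with a median of -0.54. No FVB/NJ pool fell below 0, and no other pool rose above it. The difference was 1.52 ± 0.12 (SE), or 2.86-fold, with an adjusted p of 1.37e-04 against each strain from limma, and DBA/2 was the nearest strain, 1.31 lower. An element that is unnamed here showed a still larger difference of 2.04 ± 0.16 (SE), with FVB/NJ pools at 1.42, 1.31, 1.41 and 1.10 and the others between -1.60 and 0.22. Its FVB/NJ pools had an SD of 0.15, against 0.61 for the second element of Clu.

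H2-Eb1 had the largest difference among the named genes that were lower in FVB/NJ than in each other strain. It encodes the beta chain of the MHC class II molecule E, which pairs with the alpha chain made by H2-Ea to show peptides to CD4+ T cells. In the 4 FVB/NJ pools H2-Eb1 read -1.70, -1.84, -1.40 and -1.95, and in the 16 others it lay between -0.22 and 0.59 with a median of 0.23. The other 4 strains were close to each other, with means of 0.29 in C57BL/6J, 0.22 in 129X1/SvJ, 0.17 in DBA/2 and 0.06 in BALB/c, and FVB/NJ averaged -1.72 ± 0.24. FVB/NJ was lower by 1.79 (3.45-fold) than its nearest strain, BALB/c, and the difference from the mean of the others was -1.91 ± 0.13 (SE), or 3.75-fold, with adjusted p = 1.09e-08 against the mean and 7.75e-06 against each strain from limma. Within each dye the difference was -2.09 in Cy3 and -1.72 in Cy5.

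H2-Ea followed another order of strains. Its FVB/NJ pools read -2.73, -2.12, -2.30 and -3.12, and the strain means were -2.57 in FVB/NJ, -3.27 in 129X1/SvJ, -3.56 in C57BL/6J, 1.17 in BALB/c and 1.19 in DBA/2. FVB/NJ thus fell with 129X1/SvJ and C57BL/6J, above both, and its difference from BALB/c was -3.74. As background, the b and q haplotypes are known to make no E alpha chain and the d haplotype makes it. The call against the mean of the others (-1.45 ± 0.19 SE, adjusted p = 9.98e-05 from limma) therefore rested on a pair of strains, while that of H2-Eb1 rested on all 4. H2-Ob, the beta chain of class II molecule O, differed by 0.04 and was not called, so that 0 were higher and 2 were lower of the 3 class II genes measured. Class II molecules are made by B cells, macrophages and dendritic cells. No list of markers was drawn up for dendritic cells. Of the markers of macrophages and leukocytes 0 of 7 were called in limma (1 before adjustment). Of those of B and T lymphocytes (Cd79b, Ms4a1, Cd4 and Jchain) 0 of 4 were called (0 before adjustment). The mean of the 7 leukocyte markers ran from -0.14 to 0.11 over the FVB/NJ pools and from -0.19 to 0.14 over the others, and that of the 4 lymphocyte markers from -0.10 to 0.06 and from -0.24 to 0.27. The part of any of these cells in the H2-Eb1 result was not tested.

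The promoter of H2-Eb1 is shown because class II genes share a known module ahead of the start, the X and Y boxes, which bind the factors RFX and NF-Y. The 250 bases before the start are those of RefSeq on GRCm38.p6, chr17:34305617-34305866 on the plus strand, which is the C57BL/6J sequence and not that of FVB/NJ. Capitals mark the matches found, AGCAACTGATG for the X box, where any base was allowed between AGCAAC and GATG, and CTGATTGG for the Y box. Both strands were searched and the matches do not overlap.
H2-Eb1: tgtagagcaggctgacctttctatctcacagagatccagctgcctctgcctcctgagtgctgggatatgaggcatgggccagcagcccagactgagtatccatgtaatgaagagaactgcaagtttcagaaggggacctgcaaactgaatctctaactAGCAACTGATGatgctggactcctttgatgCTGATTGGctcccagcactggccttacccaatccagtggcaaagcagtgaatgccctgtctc
The X box match began 92 bases before the start and the Y box match 62 bases before it, with 19 bases between them. Over 32851 promoter windows of this length, 0.0578% held the X box letters, 3.83% held the Y box letters and 3 windows held both. No base of the FVB/NJ promoter was measured, so these letters say nothing of how that strain differs.

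The class I side of the MHC gave a different picture. Among 9 genes of class I presentation, 1 was higher and 0 were lower in FVB/NJ. That gene was H2-Q1, with FVB/NJ pools at 0.30, 0.41, 0.30 and 0.43 and strain means of 0.36 in FVB/NJ, 0.52 in 129X1/SvJ, 0.38 in C57BL/6J, -0.57 in DBA/2 and -0.90 in BALB/c. FVB/NJ was level with the b strains (-0.02 from C57BL/6J), and the difference of 0.50 ± 0.12 (SE, adjusted p = 0.0275 from limma) was lost without any one of the FVB/NJ pools (adjusted p of 0.0728 to 0.118). Class I genes are alike in sequence, and a cDNA element can take up RNA of several of them, so this value may not be of H2-Q1 alone. B2m, the light chain of class I molecules, was not called on its first element (0.31, adjusted p = 0.607 from limma), while another of its elements was (0.60, adjusted p = 0.0297). Of 12 interferon-stimulated genes, 0 were called in limma (2 before adjustment), and the largest difference was -0.37, at Stat2 (adjusted p = 0.280 from limma).

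**Figure D2:**
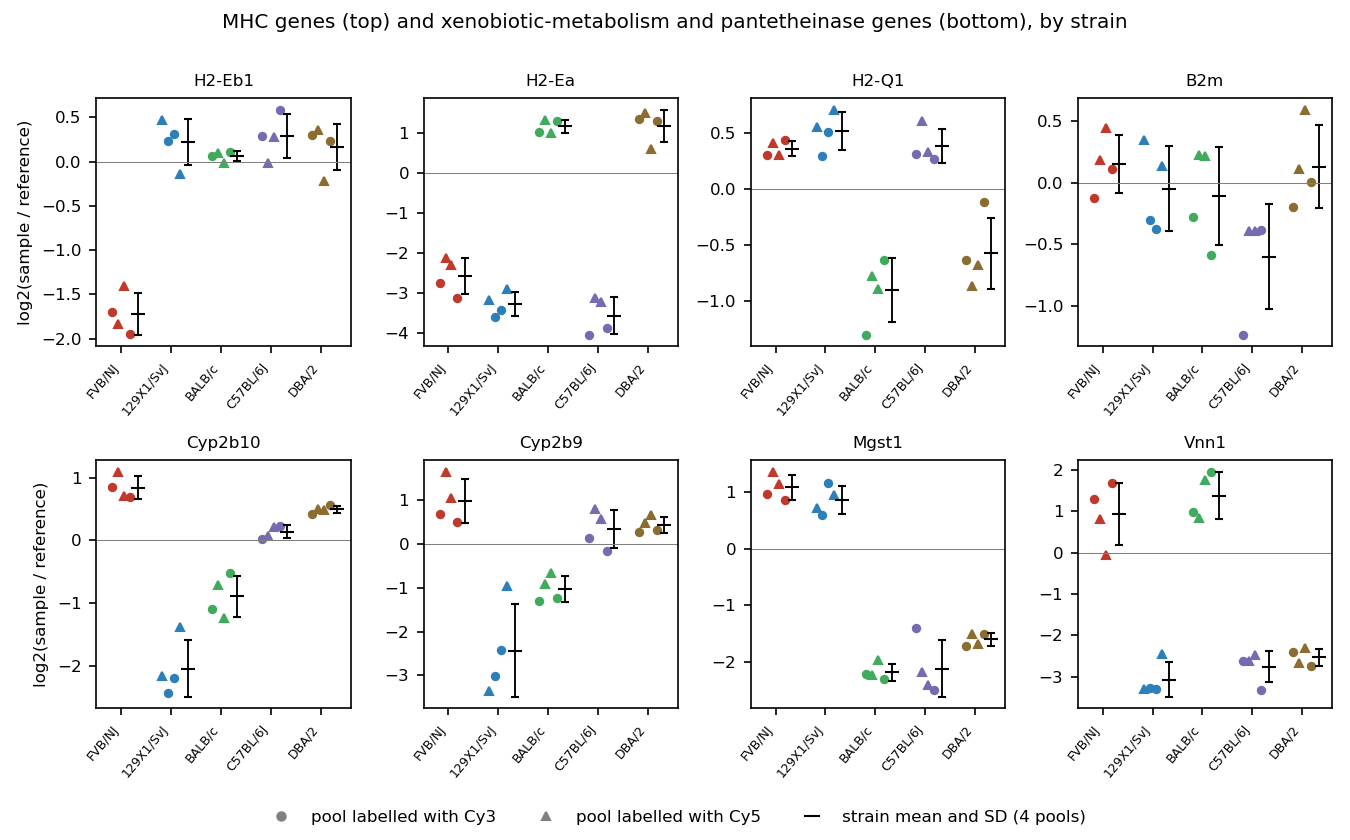
The log2 ratio of sample over reference (vertical axis, which differs between panels) in each pool of the 5 strains for H2-Eb1, H2-Ea, H2-Q1 and B2m (top) and Cyp2b10, Cyp2b9, Mgst1 and Vnn1 (bottom). Circles are Cy3 pools, triangles are Cy5 pools, and black marks give the mean and SD of 4 pools. H2-Eb1 is low in FVB/NJ alone, H2-Ea is low in FVB/NJ, 129X1/SvJ and C57BL/6J, Mgst1 is high in FVB/NJ and 129X1/SvJ, and Vnn1 is high in FVB/NJ and BALB/c.

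The other genes that were lower in FVB/NJ than in each strain had varied roles. Among genes of proteolysis, Spint1, a Kunitz-type inhibitor of the epithelial proteases matriptase and HGF activator, read -1.08, -0.88, -0.91 and -1.05 in the FVB/NJ pools, against -0.21 to 0.56 (median 0.18) in the 16 others. Its difference was -1.17 ± 0.10 (SE), or 2.25-fold, with an adjusted p of 8.78e-04 against each strain from limma, and C57BL/6J was nearest. Ctsh, a lysosomal cysteine protease, read -0.99, -0.81, -1.07 and -0.83 in FVB/NJ and -0.32 to 0.66 (median 0.23) elsewhere, a 2.18-fold lower level. A second Ctsh element gave -1.19 ± 0.10 (SE), with an SD of 0.05 over the FVB/NJ pools, and also passed against each strain (adjusted p = 7.32e-04 from limma). FVB/NJ pools did not overlap any other pool at either gene.

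Il1r2 encodes a decoy receptor that binds interleukin 1 without signalling. FVB/NJ pools read -1.0, -0.70, -0.63 and -1.55 on its first element, against -0.20 to 0.56 (median 0.09) in the others, and the difference was -1.18 ± 0.13 (SE). BALB/c was the highest strain, at 0.52, and DBA/2 the nearest, with a difference of -0.97. The second element gave the same difference (-1.18 ± 0.17 SE) without overlap of pools, but its adjusted p against each strain was 0.0984 from limma. On the first element that call was lost without FVB/NJ pool 1 or without DBA/2 pool 2, with an adjusted p of at most 0.0541.

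Slc25a17 encodes a carrier of cofactors across the peroxisomal membrane, and both of its elements passed against each strain. The first read -1.01, -0.72, -0.76 and -0.93 in FVB/NJ and -0.36 to 0.45 (median 0.18) in the others, a difference of -1.02 ± 0.11 (SE), and the second gave -1.07 ± 0.13 (SE). The second lost its call without FVB/NJ pool 1 or 3 or 129X1/SvJ pool 3, at an adjusted p of at most 0.0565 from limma. Zfp362, a zinc finger gene, read -0.95, -0.65, -1.04 and -0.83 in FVB/NJ, against -0.17 to 0.57 in the other pools, which was 2.03-fold lower. Dcaf17, whose product is named as an adaptor of a ubiquitin ligase, had the smallest of these differences, -0.72 ± 0.08 (SE), with FVB/NJ pools at -0.68, -0.47, -0.54 and -0.76 and the others between -0.10 and 0.42.

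For 2 of the genes, other elements did not show the difference. Sec22b, a SNARE protein of traffic between the endoplasmic reticulum and the Golgi, read -1.27, -1.09, -0.72 and -1.65 in FVB/NJ on one element and -0.17 to 0.38 (median 0.15) in the others, a 2.52-fold lower level (adjusted p = 1.37e-04 against each strain from limma). Its other elements gave 0.03 ± 0.12 and 0.48 ± 0.13 (SE), neither called, and with its elements averaged the gene lost its call against the mean (-0.27, adjusted p = 0.157). Capzb, a subunit of the protein that caps actin filaments, read -0.92, -0.82, -0.91 and -0.60 in FVB/NJ on one element, against -0.36 to 0.52 in the others (-0.93 ± 0.11 SE), and its other element gave -0.37 ± 0.17 with an adjusted p of 0.397 from limma. Which elements follow these transcripts was not tested.

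D3Ertd751e on chromosome 3 and D17H6S56E-5 on chromosome 17, both named only by their map positions, completed the group. D3Ertd751e read -1.26, -0.82, -1.01 and -1.28 in FVB/NJ and -0.23 to 0.62 in the others, 2.40-fold lower. D17H6S56E-5 read -1.14, -0.72, -0.80 and -1.30 in FVB/NJ and -0.57 to 0.54 in the others, and lay just inside the threshold (adjusted p = 0.0246 against each strain from limma). It lost that call without FVB/NJ pool 1 or 4 or without 129X1/SvJ pool 1, 2 or 3, at an adjusted p of up to 0.173. Lipo3, a lipase gene named after its values were seen, lay just outside at 0.0612, with FVB/NJ pools at -0.69, -0.42, -0.29 and -0.70 and the others between -0.16 and 0.33. The 3 remaining elements, without a single gene name, differed by -1.64 ± 0.15, -1.26 ± 0.10 and -0.95 ± 0.09 (SE).

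A looser view of what was particular to FVB/NJ came from the overlap of pools. At 78 elements (0.699% of those tested) all 4 FVB/NJ pools lay beyond all 16 others, above them at 30 (0.269%) and below them at 48 (0.43%). Of the 78, 71 were called against the mean, 26 above and 45 below, and they included 52 named genes, 19 above and 33 below. Among the 19 was Tfpi, the inhibitor of the tissue factor pathway of coagulation, with FVB/NJ pools at 0.54, 0.65, 0.38 and 0.81 and the others between -0.73 and 0.07 (0.91 ± 0.13 SE, adjusted p = 2.93e-04 from limma). Proc, the precursor of the anticoagulant protein C, moved the other way, with FVB/NJ pools at -0.90, -0.77, -0.48 and -0.86 and the others between -0.45 and 0.79 (-0.84 ± 0.13 SE, adjusted p = 4.19e-04). These were the only 2 called of 11 genes of coagulation. Neither passed against each strain, at adjusted p = 0.161 for Tfpi and 0.616 for Proc.

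Further genes of that kind were spread over several groups. They are given beside Mcee, Eln and Vcan, which were called though their FVB/NJ pools overlapped others. Mmut, the mitochondrial methylmalonyl-CoA mutase, read 0.48, 0.57, 0.79 and 0.65 in FVB/NJ and -1.54 to 0.19 in the others, and Mcee, the epimerase of the step before it, was also called (0.43 ± 0.10 SE, adjusted p = 0.0269 from limma), so that 2 were higher and 0 lower of 12 genes of propionate and branched-chain amino acid breakdown. Both calls were lost without FVB/NJ pool 2, 3 or 4, at an adjusted p of up to 0.0907 for Mmut and 0.206 for Mcee. A second Mcee element gave 0.47 ± 0.13 (SE) and was not called (adjusted p = 0.0633 from limma). Erp44 and Adh1, named after their values were seen, were higher by 0.68 and 0.64. Col6a3, a chain of collagen VI, read -1.27, -1.27, -0.77 and -1.15 in FVB/NJ and -0.66 to 1.13 in the others (-1.26 ± 0.14 SE). Among 32 genes of collagens and extracellular matrix, Col6a3 and Eln were lower, Vcan was higher, and none of 11 fibroblast markers was called in limma (2 before adjustment). Eln lost its call without any one of 13 arrays, 3 of them FVB/NJ (adjusted p of up to 0.263), and Vcan without FVB/NJ pool 2 or 4 (up to 0.0803). Upk1b, a uroplakin of the bladder lining, read -1.09, -1.13, -1.30 and -0.75 in FVB/NJ and -0.59 to 1.12 in the others (-1.22 ± 0.13 SE), and it was the only urothelium marker measured.

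A pair of cytochromes P450 was higher in FVB/NJ, with genes next to each other among the measured genes of chromosome 7. Cytochromes P450 of the Cyp2b family oxidise drugs and steroids, and in liver they respond to phenobarbital. Cyp2b10 read 0.85, 1.10, 0.71 and 0.70 in FVB/NJ, above every one of the 16 others (-2.43 to 0.57, median -0.25), and its strain means fell in the order 0.84 in FVB/NJ, 0.49 in DBA/2, 0.14 in C57BL/6J, -0.89 in BALB/c and -2.05 in 129X1/SvJ. Cyp2b9 kept that order, at 0.97, 0.43, 0.34, -1.03 and -2.44, but its FVB/NJ pools (0.69, 1.65, 1.06 and 0.50) overlapped those of C57BL/6J and DBA/2, whose highest were 0.80 and 0.66. The differences from the mean of the others were 1.42 ± 0.14 (2.67-fold, adjusted p = 3.38e-06 from limma) and 1.65 ± 0.29 (SE, 3.13-fold, adjusted p = 0.00212). Neither gene passed against each strain, because DBA/2 lay only 0.34 and 0.54 below FVB/NJ. Of 11 genes of cytochromes P450 and xenobiotic metabolism these were the only ones called.

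The elements of close copies can take up each other's RNA, so the values of the pair may not be independent. The promoters of the 2 genes are shown because their levels followed the same order of strains. They lie outside the transcript and do not bear on what the elements take up. Both are RefSeq sequence on GRCm38.p6, from the C57BL/6J genome, as the 250 bases before the start on the plus strand at chr7:25897408-25897657 and chr7:26173159-26173408. Capitals mark runs of at least 8 bases found in both, wherever they lay in the window. The run AAGCATCA comes early in the Cyp2b10 window and late in that of Cyp2b9, so it does not lie at matching positions.
Cyp2b10: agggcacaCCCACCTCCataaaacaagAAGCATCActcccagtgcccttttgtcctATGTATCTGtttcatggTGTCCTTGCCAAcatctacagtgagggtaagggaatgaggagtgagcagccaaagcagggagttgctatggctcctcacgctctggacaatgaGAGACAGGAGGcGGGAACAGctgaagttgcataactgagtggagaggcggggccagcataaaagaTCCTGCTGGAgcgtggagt
Cyp2b9: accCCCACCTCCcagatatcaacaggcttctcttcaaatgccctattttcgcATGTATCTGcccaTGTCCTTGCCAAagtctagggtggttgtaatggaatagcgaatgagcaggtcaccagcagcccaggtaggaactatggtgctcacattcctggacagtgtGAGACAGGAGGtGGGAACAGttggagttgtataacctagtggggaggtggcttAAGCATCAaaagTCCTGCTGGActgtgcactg
In a global alignment the 2 windows were identical at 187 of 262 columns (71.4%), and the longest shared run had 12 bases. No other windows were aligned, so this share has no background beside it.

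FVB/NJ had the highest or the lowest mean of the 5 strains at most called elements, though often close to that of another strain. At 233 of the 285 (81.8%) the FVB/NJ mean lay outside the range of the 4 other means, against 37.2% of all elements tested, and at 52 it lay inside. Called elements were picked for their distance from the mean of these same strains. A higher share among them thus follows in large part from that choice and is a description only. The strain nearest to FVB/NJ at the 233 was 129X1/SvJ for 74, BALB/c for 60, DBA/2 for 54 and C57BL/6J for 45. Several of the largest differences were shared with 1 strain. Mgst1, a microsomal glutathione transferase, read 0.96, 1.36, 1.15 and 0.86 in FVB/NJ and averaged 1.08 there, 0.85 in 129X1/SvJ, -1.60 in DBA/2, -2.11 in C57BL/6J and -2.18 in BALB/c. The difference was 2.34 ± 0.15 (SE), or 5.06-fold, its other elements gave 2.40 and 2.59, and 129X1/SvJ was 0.23 away. Pik3c2g, a lipid kinase gene next to Mgst1 among the measured genes of chromosome 6, had the same order at the top, with 0.84 in FVB/NJ and 0.71 in 129X1/SvJ and between -1.56 and -0.87 in the others.

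Vnn1, which encodes pantetheinase, read 1.30, 0.82, -0.06 and 1.68 in FVB/NJ and averaged 0.94 there, 1.37 in BALB/c, -2.53 in DBA/2, -2.75 in C57BL/6J and -3.07 in 129X1/SvJ. Its difference of 2.68 ± 0.25 (SE), was the largest of all, and BALB/c exceeded FVB/NJ by 0.44. Il18, the interleukin 18 gene, was shared with 129X1/SvJ (0.69 in FVB/NJ, 0.94 in 129X1/SvJ and -1.09 to -0.47 in the others), as was Adam11 (0.92 in FVB/NJ, 0.71 in 129X1/SvJ and -1.51 to -1.09 in the others). Smgc, which encodes a secretory protein of the submandibular gland, averaged 1.06 in FVB/NJ, 0.46 in C57BL/6J and -1.30 to -0.76 elsewhere.

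Low values were shared in the same way. Spink8, a Kazal-type protease inhibitor, read -2.36, -1.95, -2.58 and -2.16 in FVB/NJ and averaged -2.26 there, -1.91 in 129X1/SvJ, -0.43 in C57BL/6J, 0.71 in DBA/2 and 1.11 in BALB/c. Ms4a5 was low in FVB/NJ (-1.83) and BALB/c (-1.58). Mis12, of the kinetochore, and the Golgi GTPase gene Rab6a were low in 3 strains, at -1.99 and -1.35 in FVB/NJ, -2.12 and -2.07 in 129X1/SvJ and -2.02 and -1.36 in BALB/c, against 0.81 to 1.17 in C57BL/6J and DBA/2. Egf, the epidermal growth factor gene, averaged -0.88 in FVB/NJ and -0.98 in 129X1/SvJ, with 0.29 to 0.41 in the others, and the genes next to it among those measured on chromosome 3, Pla2g12a and Casp6, were low in the same pair of strains (-0.52 and -0.48 in FVB/NJ, -0.44 and -0.52 in 129X1/SvJ). Rab6a lost its call without FVB/NJ pool 2 or 3 (adjusted p of up to 0.103), Egf without FVB/NJ pool 1, 2 or 3 (0.0708), and Casp6 without FVB/NJ pool 1 or 3 or DBA/2 pool 1 or 3 (0.204). Vnn1, Pik3c2g, Il18, Ms4a5, Pla2g12a and Casp6 were named after their values were seen. Over the 5700 measured genes with a known chromosome, 12 neighbouring pairs were both called, and 7 of them moved the same way. No expected number of such pairs was worked out, so this count is a description only.

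**Figure D3:**
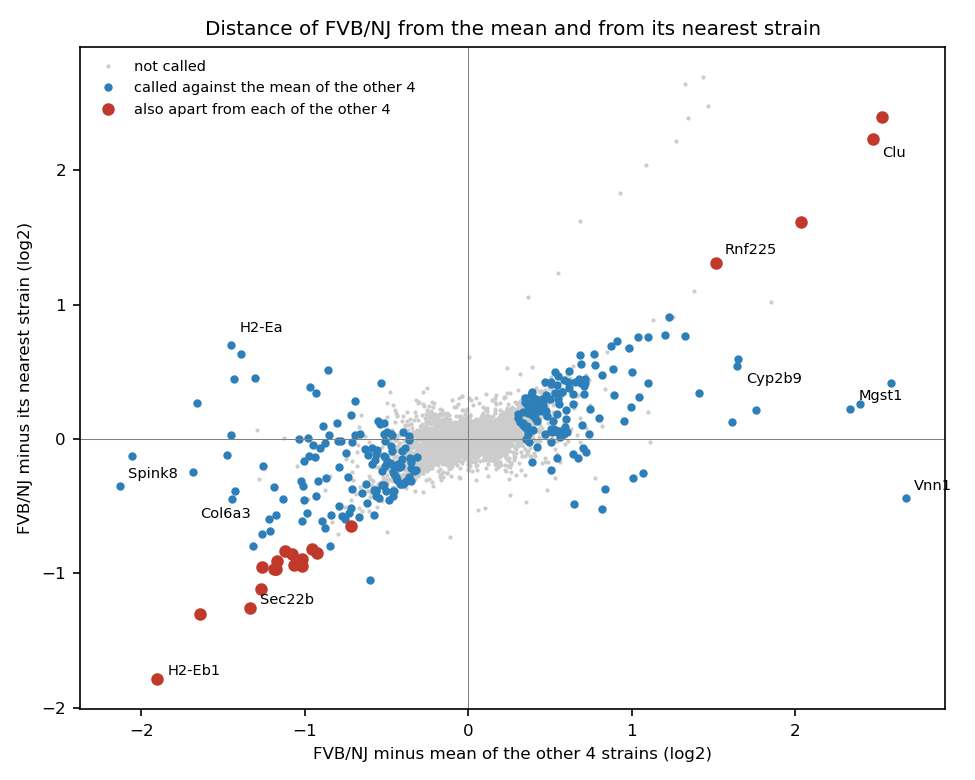
Each point is an array element, with the FVB/NJ mean minus the mean of the other 4 strains (horizontal axis, log2) against the FVB/NJ mean minus that of its nearest strain (vertical axis, log2). Grey points were not called, blue points were called against the mean, and the 20 red points also differed from each strain. H2-Eb1 is at -1.91 and -1.79 and Clu at 2.48 and 2.24, far from both axes, whereas Vnn1 (2.68 and -0.44), Mgst1 (2.34 and 0.23) and Spink8 (-2.13 and -0.35) lie near the horizontal line at 0.

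Each gene group held few called genes, from 0 to 6, and the share of a group is read against the 2.68% of named genes called. The share was above that in 6 groups described next, at 30% of lipid carriers, 23.5% of androgen-regulated genes, 21.4% of matrix metalloproteinases and protease inhibitors, 14.3% each of secretory proteins and of glutathione and oxidant defence, and 11.4% of vesicle traffic and dynein. They were not the only such groups. The share was 66.7% for MHC class II, 33.3% for complement, and 18.2% each for coagulation and for cytochromes P450 and xenobiotic metabolism. It was 16.7% each for propionate and branched-chain amino acid breakdown and for adipose markers, 11.1% for class I presentation and 9.38% for extracellular matrix. The only urothelium marker measured was called too. The groups were drawn up with earlier results of these data known and share members, so these shares are a description. Of 28 matrix metalloproteinases and protease inhibitors, 3 were higher (Adam11, Tfpi and Adamts1) and 3 were lower (Spink8, Mmp13 and Mmp7). Mmp13, a collagenase, read -1.83, -2.13, -1.81 and -1.80 in FVB/NJ with BALB/c nearest (a difference of -0.39), and Mmp7, matrilysin, averaged -1.07 in FVB/NJ and -1.59 in DBA/2. Of 17 androgen-regulated genes, Clu was higher and Egf, Azgp1 and the serine protease gene Tmprss2 were lower, while the secretory marker Pbsn (probasin) was not called, at 0.35 ± 0.24 (SE). Of 21 secretory proteins of prostate and seminal vesicle, Smgc and the lysozyme-like 9530003J23Rik were higher and Azgp1 was lower. FVB/NJ averaged 0.22 at 9530003J23Rik, below 129X1/SvJ at 0.71. Of 35 genes of vesicle traffic and dynein, 0 were higher and 4 were lower, namely Sec22b, Dynlt1b, Rab6a and the dynein chain Dync1i2. Dynlt1b, a dynein light chain with close copies in the genome, read -1.47, -0.80, -0.92 and -1.51 in FVB/NJ on its first element (-1.31 ± 0.15 SE). Another element gave -0.54 ± 0.08 (SE, adjusted p = 4.58e-04 from limma), again with all FVB/NJ pools below the 16 others, and a further one gave -0.24 and was not called (adjusted p = 0.372). Of 21 genes of glutathione and oxidant defence, Mgst1 and Gstz1 were higher and Gsto1 was lower, and of 10 lipid carriers Clu and Apod were higher and Azgp1 was lower. Gsto1 was not lowest in FVB/NJ. It averaged -0.69 there, -0.82 in BALB/c, -1.37 in DBA/2, 0.70 in C57BL/6J and 0.95 in 129X1/SvJ. The Gsto1 call was lost without 129X1/SvJ, with arrays scaled to the same spread, after quantile normalization and on the arrays of either dye. The median difference of these 6 groups ran from -0.07 to 0.12, against 0.01 over all named genes. Of 3 complement genes, C1ra was lower, at a mean of -0.50 in FVB/NJ, though BALB/c was lower still at -0.62. The C1ra call was lost without 129X1/SvJ. Called shares near or below 2.68% were found for cell cycle genes (1 of 34 lower, Mis12), cytosolic ribosomal proteins (1 of 44 lower, Rplp1), chaperones of the endoplasmic reticulum (0 of 28) and genes of steroid receptors and steroid metabolism (0 of 6). Before adjustment in limma, 11.6% of named genes passed, against 9 of 34 cell cycle genes (26.5%, of which 8 were lower and 1 higher), 4 of 44 ribosomal protein genes (all lower), 2 of 28 chaperones and 1 of 6 steroid genes. Without single FVB/NJ pools the calls of Adamts1 and Rplp1 (pool 2, 3 or 4), 9530003J23Rik (pool 1, 2 or 4), Gstz1 (pool 1, 3 or 4), Dync1i2 (pool 2 or 3) and C1ra (pool 1 or 4) were lost, at adjusted p of up to 0.177, and Tmprss2 lost its call without any one of 13 arrays (up to 0.166). A second Tmprss2 element gave -0.24 and was not called (adjusted p = 0.589 from limma), and the gene lost its call with its elements averaged.

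**Figure D4:**
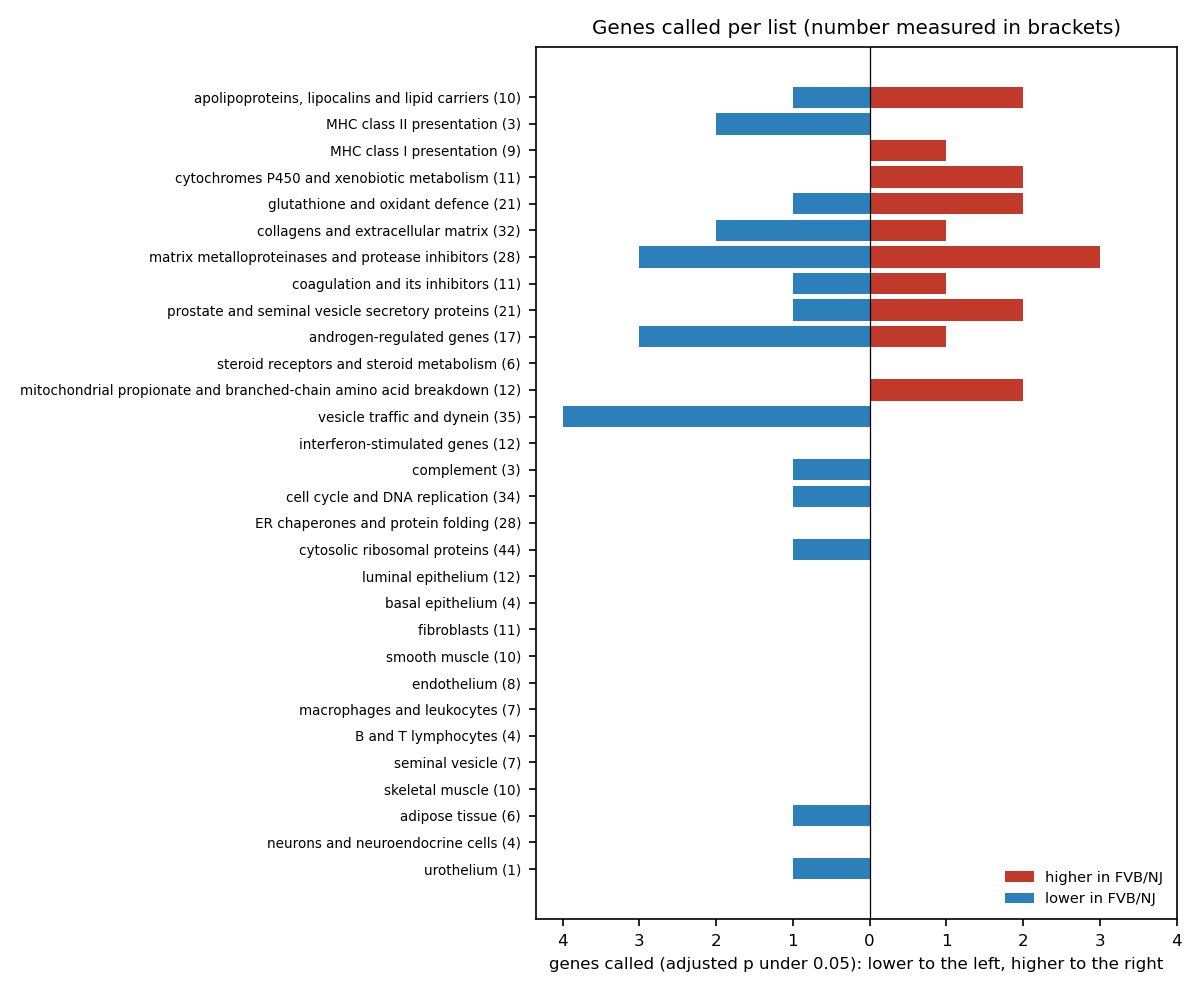
Number of genes called per group, with bars to the right for genes higher in FVB/NJ and to the left for genes lower, and the number measured in brackets. Vesicle traffic and dynein holds the longest bar, with 4 lower and 0 higher of 35, and 10 of the 12 cell type groups hold no called gene.

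Genes that the study itself named for differences among strains or measured by other assays were looked at one by one, and since they were picked on these samples their direction is not independent evidence. Of 19 measured, 4 were higher (Clu, Mgst1, Apod and H2-Q1) and 4 were lower (H2-Ea, Egf, Mmp7 and Azgp1). Apod, the lipocalin apolipoprotein D, read 0.30, 0.89, 0.42 and 0.66 in FVB/NJ, just above the other 16 (-0.79 to 0.30), a difference of 0.71 ± 0.14 (SE, adjusted p = 0.00408 from limma). Azgp1, a zinc-binding glycoprotein, averaged -0.78 in FVB/NJ and -0.96 in BALB/c. Esr1, the estrogen receptor alpha gene, was not called on the element with no missing value (-0.01 ± 0.12 SE). Another element, without values for 129X1/SvJ pools 2 and 3, had FVB/NJ pools at 0.38, 0.83, 0.52 and 0.25. They lay above all other pools measured there, by 0.03 at the least (0.62 ± 0.14 SE, adjusted p = 0.0184 from limma). On a further element 129X1/SvJ pool 2 read 0.92, above every FVB/NJ pool. That element gave 0.53 ± 0.19 (SE) and was not called (adjusted p = 0.199 from limma). An element with 3 missing values gave -0.09 and was not called either. Rbp4, the plasma carrier of retinol, likewise gave -0.10 on one element and -0.57 ± 0.10 (SE, adjusted p = 0.00275 from limma) on another. Not called were Psca (0.60), Odc1 (0.32), Fabp5 (-0.25), Sbp (0.12), Cxcl12 (-0.08), Pttg1 (-0.30), Cap1 (0.18) and Svs2 (1.43). Psca, Pttg1 and Cap1 were called without 129X1/SvJ, and Psca and Odc1 after quantile normalization.

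Few markers of cell types were called in FVB/NJ. Their differences ran from -0.30 (Cd24a) to 0.35 (Pbsn) for luminal and from 0.02 (Sfn) to 0.32 (Itgb4) for basal cells. For fibroblasts they ran from -0.31 (Col3a1) to 0.40 (Dcn), with 0 of 11 called and 2 lower before adjustment in limma. Neuronal and neuroendocrine markers ran from -0.19 (Chgb) to 0.54 (Gap43). None of 12 luminal, 4 basal, 10 smooth muscle, 8 endothelial, 10 skeletal muscle or 4 neuronal and neuroendocrine markers was called, and 0 of these passed in limma before adjustment, and of 6 adipose markers Car3 was lower (-0.87 ± 0.21 SE), a call lost without FVB/NJ pool 1, 3 or 4 (adjusted p of up to 0.147). Pbsn, Tgm4 and Sbp, markers of mouse prostate, had values on all 20 arrays, although a ratio to a reference made of prostate RNA cannot show their level. Seminal vesicle secretion genes varied most, with a mean over 7 markers of -0.47, -3.07, -0.51 and -1.15 in the FVB/NJ pools, against -3.11 to 1.11 in the others, and none was called (1 before adjustment). Svs2 read 0.12, -6.84, -0.36 and -1.26 in FVB/NJ, so pool 2 held far less of it than the rest. The part of this difference between pools in the other results was not tested.

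FVB/NJ arrays gave 11225 to 11247 values each. The spread of values over an array, as a median absolute deviation, was 0.291 in FVB/NJ pool 2 and at most 0.197 in pools 1, 3 and 4. Pools of FVB/NJ that shared a dye correlated at 0.41 to 0.54 over all elements and those of opposite dye at 0.07 to 0.21, and 1715 elements differed between dyes over the 5 strains. At 0 elements did the FVB/NJ difference itself depend on the dye at an adjusted p under 0.05 from limma (266 before adjustment). With 2 arrays of each dye per strain, this test could miss such a dependence. All 20 elements apart from each strain had the same sign in both dyes, against 62.6% of all elements. All 20 also had the larger size in Cy3, against 160 of the 284 called elements with a difference in both dyes. The source of this lean to Cy3 was not tested. The 20 were picked on the arrays of both dyes together, so their agreement in sign follows largely from that choice. The median SD of an element within FVB/NJ was 0.17, against 0.30 in 129X1/SvJ, 0.18 in C57BL/6J, 0.17 in BALB/c and 0.15 in DBA/2. Each pool came from separate mice, so p-values measure the spread between pools and not between single mice.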

How the data were processed

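Transcript levels were measured in 20 pooled prostate samples on 2-colour cDNA arrays. The authors scanned the arrays with GenePix, subtracted the median background, set spots that failed an expression criterion to missing and applied loess within each print tip, and the deposited values are log2 ratios, here sample over reference. The count of columns belonging to other samples was 0. Their removal of weakly expressed clones needs intensities and was not repeated, and their test, SAM, was not run. An element was kept if no more than 3 of its 20 values were missing and each strain had 2 or more, which left 11159 of 11552. A linear model with a mean per strain was fitted with limma 3.58.1 in R 4.3.3 with moderated variances, and FVB/NJ was compared with the mean of the other 4 strain means. For the comparison with each strain, the largest of 4 two-sided p-values was taken where all 4 differences had 1 sign, and 1 otherwise. All p-values were adjusted by the Benjamini-Hochberg method over the elements tested. SEs are those of the fit and SDs are over 4 pools. Gene names came from platform annotation: 8050 elements had 1 symbol, 672 several and 2830 were not listed, and 7880 matched the GRCm38.p6 table by gene identifier. A gene is given by its element with the fewest missing values, then the lowest number. Named genes were the 12 highest and 12 lowest that passed both tests with FVB/NJ pools beyond the 16 others, genes the study named, and up to 4 called genes each way per list with up to 2 not called. The strain, the lists and the rule were chosen with earlier results of these data known. The script was tested on simulated data.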

Additional observations from a re-analysis of the deposited data

Results flagged for a closer look

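Single pools far from the other 3 of their strain were looked for in 170 groups of 4 pools, and 12 were found by Dixon's test, which chance alone would give for about 1 group in 20. All values are log2 ratios of sample over reference. In FVB/NJ, pool 2 read -2.13 at Mmp13 (others -1.83 to -1.80), -0.58 at Rplp1 (-0.30 to -0.25), -0.53 at Chga (0.05 to 0.11) and 0.74 at Adh1 (0.34 to 0.40). FVB/NJ pool 1 read 0.30 at Ms4a1 (others 0.06 to 0.08), 0.36 at 1600014C10Rik (0.45 to 0.47) and 0.66 at 1700010B08Rik (0.46 to 0.49). Pool 3 of FVB/NJ read -0.27 at Ckm (others -0.02 to 0.01), and pool 4 read 0.34 at Psca (0.07 to 0.08). Among genes apart in FVB/NJ, a pool of another strain stood off at Dcaf17, where C57BL/6J pool 4 read 0.42 (others 0.08 to 0.13), and at 2 elements without a gene name, where BALB/c pool 1 read -0.21 (others 0.05 to 0.10) and C57BL/6J pool 4 read -0.67 (others -0.29 to -0.24). The genes 1600014C10Rik and 1700010B08Rik were named after their values were seen.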

How the results depend on the processing

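Under 35 other settings no called gene that is named here changed sign. Of the 64 called genes and unnamed elements followed, 20 kept their call in every setting. Another 23 lost it only on arrays of a single dye, of which Apod, Azgp1, Tfpi and Adh1, among others, lost it with either dye. Without 1 FVB/NJ array or more, 18 lost it. The rest were Sec22b, with elements averaged by gene, and Gsto1 and Mmp7, without 129X1/SvJ among other settings. Of 38 genes not called, 6 gained a call in at least 1 setting, among them Psca, Odc1, Pttg1, Cap1 and Stat2. The number of elements called against the mean (285) was 441 with arrays scaled to the same spread, 454 after quantile normalization, 494 with array weights, 529 without 129X1/SvJ, 121 on the Cy3 arrays (42 higher and 79 lower), 45 on the Cy5 arrays and 479 without 129X1/SvJ pools 3 and 4, the last chosen after seeing the data. The number apart from each strain (20) was 32 after quantile normalization, 63 without 129X1/SvJ, 10 on the Cy3 arrays and 0 on the Cy5 arrays in limma (71 before adjustment). Leaving out 1 array in turn gave 171 to 442 and 16 to 22 elements. Against the mean, the lowest was without FVB/NJ pool 4 and the highest without 129X1/SvJ pool 4, and without FVB/NJ pool 2 there were 185. Apart from each strain, the lowest was without FVB/NJ pool 1 and the highest without 129X1/SvJ pool 4. With the replicate block (pool number), the numbers were 337 and 23, of which 275 and 20 were shared with the fit without it. Pool numbers carry no pairing in the labels. Pools of different strains were correlated on their deviations from their own strain means, not on the log2 ratios themselves. Same-numbered pools then gave a median of 0.302 where they shared a dye (24 pairs, 0.0823 to 0.435) and -0.176 where they did not (16 pairs). Other-numbered pools that shared a dye gave 0.213 (56 pairs). With 4 pools per strain, small differences may have been missed.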
